A study of Mus musculus with 6 samples.

Results

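The integrated stress response genes described here are 10 genes: the eIF2α kinases other than Eif2ak3 (Eif2ak1, Eif2ak2 and Eif2ak4), the transcription factors Atf4 and Ddit3, and the stress outputs Chac1, Trib3, Fgf21, Vldlr and Ppp1r15a. They were taken by gene symbol from a table of read counts for 54532 genes, where they fill 11 rows because Ddit3 has a second, 105-base entry with no read in any library. The counts come from leptotene/zygotene (L/Z) spermatocytes, which are germ cells in early meiotic prophase, sorted by Hoechst staining from testes of mice aged 12 days postpartum (dpp). The samples are 3 Control libraries, labelled Wild type and described by the study as littermates, and 3 Eef1g-cKO libraries from males in which floxed exons of Eef1g were removed by Stra8-GFPCre, a Cre that acts in germ cells from the spermatogonial stage, on a C57BL/6J background. Eef1g encodes the γ subunit of translation elongation factor eEF1. Whether the Control males carried the floxed allele or Cre is not stated in the labels.

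The integrated stress response joins several kinases to 1 substrate. EIF2AK1 (HRI) responds to heme shortage and mitochondrial stress, EIF2AK2 (PKR) to double-stranded RNA, and EIF2AK4 (GCN2) to uncharged tRNA and stalled ribosomes. Each phosphorylates the α subunit of eIF2, which lowers translation initiation in general while ribosomes reach the coding sequence of Atf4 mRNA more often. ATF4 then raises transcription of genes for amino acid supply and stress adjustment, and PPP1R15A (GADD34) brings a phosphatase back to eIF2α to end the response. Since most of this control acts on protein and phosphorylation, mRNA counts show only its transcriptional side.

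Library totals ran from 763133 to 2617648 reads, with both ends among the Eef1g-cKO libraries (replicates 3 and 2), and the groups summed to 4777872 reads in Control and 4689345 in Eef1g-cKO. Levels are given in CPM, counts per 1000000 reads after TMM scaling of library sizes, and differences as log2 ratios (log2 fold changes) of Eef1g-cKO over Control from the edgeR fit. In Eef1g-cKO replicate 3, the shallowest library, 3 reads were worth 4.63 CPM, and rRNA genes took 9.23% of its reads against 2.73% to 6.29% in the others. For Eef1g itself, Control libraries averaged 220 ± 7.34 CPM and Eef1g-cKO libraries 136 ± 16 CPM (SD, n = 3), a log2 ratio of −0.68 (SE 0.20, edgeR adjusted p 0.029). Its adjusted p rose above 0.05 when any Control library or Eef1g-cKO replicate 1 was left out. The counts cover the whole gene, so any reads from exons outside the deletion are included. By Western blot, the paper reports strongly reduced eEF1G protein in sorted L/Z spermatocytes.

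Markers of L/Z spermatocytes, among them Sycp1, Sycp3 and Dmc1, were abundant in every library, summing over 9 genes to between 8329 and 9197 CPM in the Control libraries and between 17169 and 21534 CPM in those of Eef1g-cKO. By edgeR, 5 of the 9 were called higher and 0 lower, where 3.42% and 4.96% of all fitted genes were called. At an unadjusted p under 0.05 the numbers were 6 and 1, and with DESeq2 and limma-voom they were 5 and 0, and 4 and 0. The sums were mostly Sycp1 (means 5101 and 10487 CPM). The markers did not rise as a set. Stra8 was lower, at 509 and 316 CPM (log2 ratio −0.69, SE 0.20), without being called. Meiob, Spo11 and Prdm9 were not called either (log2 ratios 0.06, 0.07 and 0.84). Spermatogonial, Sertoli and peritubular or stromal markers were lower in Eef1g-cKO. The 10 spermatogonial markers summed to 1508 to 1725 CPM in the Control libraries and 705 to 844 CPM in those of Eef1g-cKO, the 8 Sertoli markers to 85.5 to 296 and 1.54 to 45.3 CPM, and the 6 peritubular and stromal markers to 102 to 212 and 17.0 to 46.3 CPM. Of 8 markers of pachytene and later stages, the sums were 175 to 217 and 145 to 183 CPM, mostly from Tbpl1 (means 118 and 110 CPM). Of the 4 in the fit, edgeR, DESeq2 and limma-voom each called 0 higher and 1 lower. By edgeR this was Piwil1, with 34, 22 and 30 reads in Control and 0, 1 and 0 in Eef1g-cKO. Piwil1 entered the fit through its Control libraries alone, which had to favour a difference. Leydig markers stayed under 11 CPM in every library, with Cyp17a1 and Hsd3b1 at 0. Blood and macrophage markers reached 77.9 CPM in Control replicate 1 and 75.7 CPM in replicate 3 of Eef1g-cKO, mostly from hemoglobin genes, with Cd68 and Csf1r at 0, and the 4 endothelial markers ranged from 0 to 35.6 CPM. In sorted bulk samples, fewer cells of a type and less RNA per cell cannot be told apart.

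The 10 genes were chosen by their place in the pathway with their read counts in these same libraries known, so their differences are described without p-values, and the counts of calls are given for orientation only, with nothing read from them. Of the 10 genes, 5 had enough reads to enter the edgeR fit of 8513 genes. Of these 5, 2 were called higher in Eef1g-cKO (Atf4 and Vldlr) and 0 lower, where a call is an adjusted p under 0.05 with an absolute log2 fold change over 1. Vldlr entered the fit through its Eef1g-cKO libraries alone, which had to favour a difference. At an unadjusted p under 0.05 the numbers were also 2 and 0. DESeq2 gave 2 and 0, and limma-voom 1 and 0. Among all fitted genes, 3.42% were called higher and 4.96% lower. Without the fold change limit the numbers stayed 2 and 0, where 7.8% of all fitted genes passed as higher and 6.01% as lower. The CPM ranges of Control and Eef1g-cKO were apart for 4 of the 10 genes, Atf4, Vldlr, Chac1 and Fgf21, each higher in Eef1g-cKO. For all fitted genes the share without overlap was 34.5%, of which 16.4% lay in the higher direction. For the 3680 genes outside the fit with 15 to 60 reads in all, 2.96% were without overlap in the higher direction and 19.1% in the lower direction. That range holds all 5 of the 10 genes outside the fit. Of these, Chac1 and Fgf21 were without overlap, and Eif2ak2, Ddit3 and Trib3 overlapped.

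**Figure D1:**
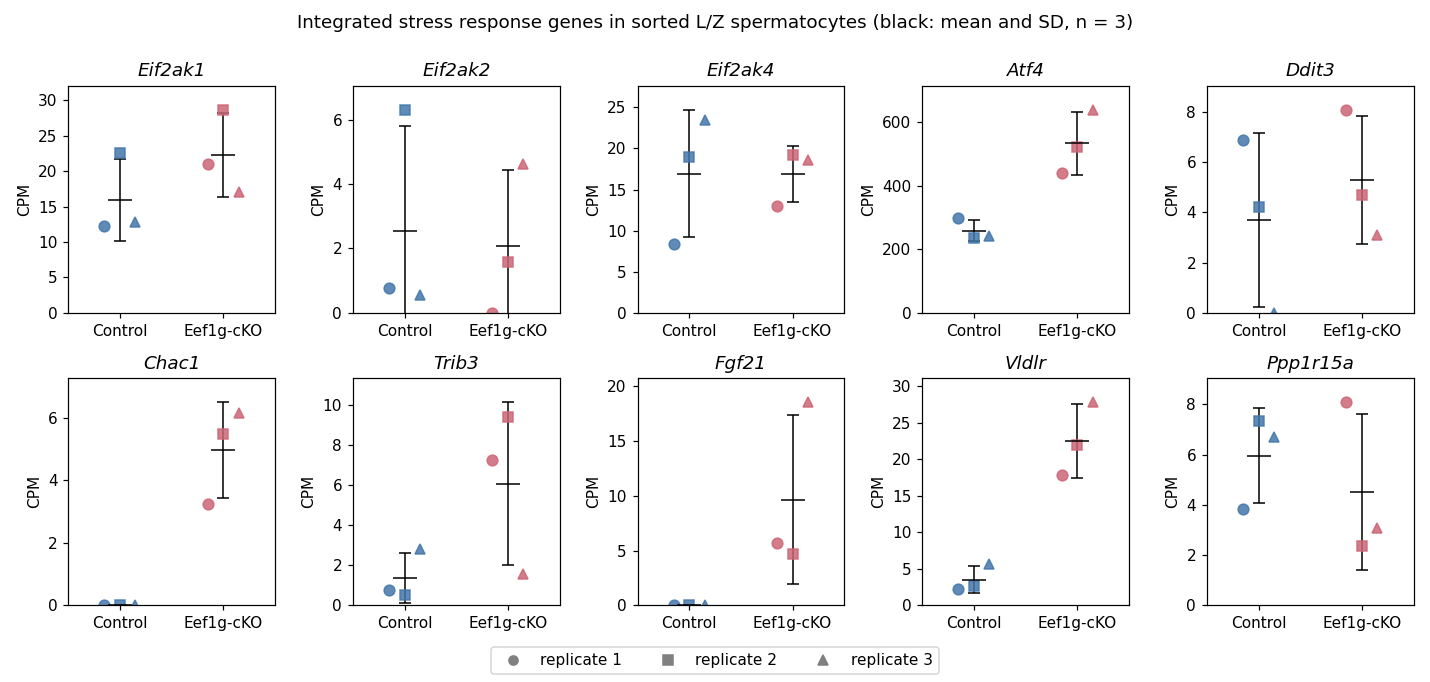
CPM (y axis, linear from 0) of the 10 genes in each of the 3 Control and 3 Eef1g-cKO libraries (x axis); symbols are replicates and black bars the mean ± SD, with bars that would pass below 0 ending at 0. Atf4, Vldlr, Chac1 and Fgf21 lie higher in all 3 Eef1g-cKO libraries than in any Control library, and the other 6 genes overlap.

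The kinases were present at low levels and overlapped between genotypes. Eif2ak1 (ENSMUSG00000029613, chromosome 5, 143817788 to 143904251, GRCm38, plus strand) had 12.2, 22.6 and 12.9 CPM in Control replicates 1 to 3 and 21.0, 28.6 and 17.0 CPM in Eef1g-cKO. Its highest Control library lay above 2 of the 3 Eef1g-cKO libraries, and the log2 fold change of 0.50 was smaller than its SE of 0.52. It was 0.85 without Control replicate 2 and 0.28 without Eef1g-cKO replicate 2. Exons of Aimp2 and Ankrd61 on the other strand cover 8.59% and 3.03% of its exon bases, and these genes had 18 and 6 reads over all libraries.

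Eif2ak4, the amino acid and ribosome stall sensor (ENSMUSG00000005102, chromosome 2, 118388618 to 118475234), had 8.40, 18.9 and 23.5 CPM in the Control libraries and 12.9, 19.2 and 18.5 CPM in those of Eef1g-cKO. All 3 Eef1g-cKO values fell inside the Control range. The log2 fold change was −0.01 (SE 0.56), so a change of the size of the SE was not detectable at this depth. Its sign was not stable: it was 0.08 with a block on replicate number and 0.29 without Control replicate 3.

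Eif2ak2, which is also an interferon-induced gene (ENSMUSG00000024079, chromosome 17, 78852564 to 78882573), had 1, 12 and 1 reads in Control and 0, 4 and 3 reads in Eef1g-cKO, too few for the fit. Control replicate 2 held 12 of the 14 Control reads, and that library also had the highest sum of Sertoli markers, 296 CPM. The part of other cells in its count was not tested. The ratio of summed CPM, Eef1g-cKO over Control, was 0.56 (95% interval 0.19 to 1.49, exact conditional binomial, counting error only) and 2.44 without Control replicate 2. Of 22 interferon-induced genes, 2 entered the fit, and edgeR, DESeq2 and limma-voom each called 0 of them in either direction, as did an unadjusted p under 0.05. Isg15, Ifit3, Oas1a and Irf7 had no read in any library.

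The kinase left out of the list, Eif2ak3 (PERK, the sensor of the endoplasmic reticulum), had 30, 39 and 35 reads in Control and 38, 55 and 8 reads in Eef1g-cKO. Its log2 fold change was 0.07 (SE 0.50, edgeR adjusted p 0.95).

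Atf4 was by far the most abundant of the 10 genes. Atf4 (ENSMUSG00000042406, chromosome 15, 80255184 to 80257541, plus strand) had 298, 237 and 243 CPM in Control replicates 1 to 3 and 440, 523 and 639 CPM in Eef1g-cKO. The lowest Eef1g-cKO library lay well above the highest Control library, and the highest was replicate 3, the shallowest library. Group means were 259 ± 33.5 and 534 ± 100 CPM (SD, n = 3), with a log2 ratio of 1.04 (SE 0.18). This value sits just above the fold change limit of 1 used for calls. It was 0.84 with library totals alone, 0.92 with upper-quartile scaling, 0.96 with limma-voom, and 0.99, 0.997 and 0.93 without Control replicate 2, Control replicate 3 or Eef1g-cKO replicate 3, so in these fits the fold change limit was not passed. The 5 fitted genes whose log2 CPM followed Atf4 most closely over the 6 libraries, which fall into 2 groups and share genotype, were H2-D1 (Pearson r 0.997), Naa15 (0.994), Ubqln1 (0.993), Atp6v1h (0.993) and Usp3 (0.992). Among the list itself r was 0.93 for Vldlr, 0.49 for Eif2ak1, 0.07 for Eif2ak4 and −0.42 for Ppp1r15a.

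Ddit3 (CHOP, a bZIP factor that ATF4 induces when stress persists; ENSMUSG00000025408, chromosome 10, 127290774 to 127296288) had 9, 8 and 0 reads in Control and 10, 12 and 2 reads in Eef1g-cKO, or 6.87, 4.20 and 0 against 8.09, 4.70 and 3.09 CPM. The genotypes overlapped, and the ratio of summed CPM was 1.59 (95% interval 0.82 to 3.16, counting error only). It became 2.50 without Control replicate 1 and 1.02 without Control replicate 3. The second Ddit3 entry shares all of its 105 bases with the first, and exons of Mars on the other strand cover 3.97% of the exon bases. Whether the counting kept reads that fall on both entries is not stated, so the Ddit3 count may be too low by those reads.

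**Figure D2:**
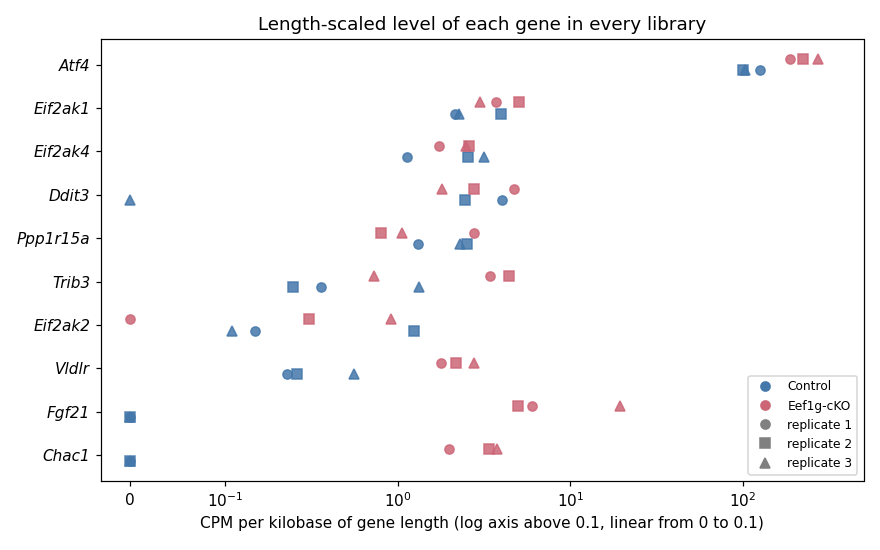
CPM per kilobase of gene length (x axis, logarithmic above 0.1 and linear below) for each gene (y axis, ordered by the Control mean), 1 symbol per library, blue for Control and red for Eef1g-cKO. Atf4 stands apart at 110 in Control and 226 in Eef1g-cKO. Fgf21, at 0 in Control, has the next highest mean in Eef1g-cKO, 10.1 ± 8.12 (SD), which reaches the spread of Eif2ak1.

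Levels can be set roughly side by side between genes once they are divided by gene length. The length is that deposited with the counts and may exceed that of the transcripts present. In Control, Atf4 had 110 ± 14.2 CPM per kilobase (SD, n = 3). It was followed by Eif2ak1 with 2.80 ± 1.02, Eif2ak4 with 2.27 ± 1.04, Ddit3 with 2.15 ± 2.02 and Ppp1r15a with 2.03 ± 0.64 CPM per kilobase, 4 neighbours that did not differ beyond their spread. Trib3 (0.64 ± 0.59), Eif2ak2 (0.50 ± 0.64) and Vldlr (0.35 ± 0.18) formed a lower set that also overlapped within itself, and Fgf21 and Chac1 were at 0. In Eef1g-cKO, Atf4 had 226 ± 42.5 and Fgf21 10.1 ± 8.12 CPM per kilobase. The Fgf21 mean was drawn up by replicate 3 (18.5 CPM against 5.66 and 4.70), and its spread reached that of Eif2ak1 (3.92 ± 1.04). Eif2ak1, Ddit3, Chac1, Trib3, Eif2ak4, Vldlr and Ppp1r15a then lay between 3.92 and 1.54 CPM per kilobase, each within the spread of its neighbour in that order, and Eif2ak2 was lowest with 0.40 ± 0.46.

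ATF4 is known to bind, with C/EBP partners, a short composite element in its targets. Its core, TGATGNAA on either strand, was searched in the 300 bases around each RefSeq transcription start (250 upstream and 50 downstream, GRCm38.p6). All 10 genes had an entry there, and 4 of them held the element: Chac1, Fgf21, Trib3 and Vldlr. In comparison, it occurred near 4.51% of all 27025 genes with an entry and 2.41% of the 6474 fitted genes with one. The outputs were listed as ATF4 targets, so a higher share among them may follow from that choice and is not support. A match of letters is a description of the sequence and not a binding site. The sites are shown 5′ to 3′ on the strand of the gene, with the element in capitals, because they are the matches among the 10 genes.
Chac1: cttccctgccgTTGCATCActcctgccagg
Fgf21: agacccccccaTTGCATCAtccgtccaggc
Trib3: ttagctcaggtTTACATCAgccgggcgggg
Vldlr: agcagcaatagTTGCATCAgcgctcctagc

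The Chac1 site lies at chr2:119351038-119351067, where the element starts at position −193 from the transcription start. The Fgf21 site lies at chr7:45615611-45615640 on the minus strand, with the element starting at −139. Both fall outside annotated genes. The Vldlr site lies at chr19:27216809-27216838, with the element at −200 from the RefSeq start but inside an exon of the longer gene model used for counting. The Trib3 site, at chr2:152344028-152344057 on the minus strand, has the element at position 15 from the RefSeq start and the element lies outside the gene model of the count table. The first 3 share the letters TTGCATCA, and Trib3 has TTACATCA.

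Chac1 and Fgf21 had no read in any Control library. Fgf21, a secreted metabolic hormone (ENSMUSG00000030827, chromosome 7, 45613886 to 45615490, minus strand), had 7, 12 and 12 reads in Eef1g-cKO replicates 1 to 3, which is 5.66, 4.70 and 18.5 CPM. Replicate 3 stood above the other two. Against a floor of 3 reads over the 3 Control libraries together (0.60 CPM), Fgf21 was at least 11.7-fold higher, taking its own reads as exact, and against 3 reads in each Control library at least 5.21-fold higher. The lower 95% limit of the ratio of summed CPM (exact conditional binomial) was 8.93. It includes the counting error of both groups, with every read taken as independent. Leaving out 1 library moved the 11.7-fold bound to between 7.22 and 16.8, with the lowest values without Control replicates 2 (7.22) and 3 (7.49).

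Chac1, which encodes an enzyme that degrades glutathione (ENSMUSG00000027313, chromosome 2, 119351229 to 119354381, plus strand), had 4, 14 and 4 reads in Eef1g-cKO, or 3.23, 5.49 and 6.18 CPM. The 3 values lay close together. Against the same floors it was at least 8.27-fold and at least 2.69-fold higher, and the lower 95% limit of the ratio was 6.18. Without Control replicates 2 and 3 the first bound became 5.12-fold and 5.32-fold. Both genes stayed under the low-count limit of the fit. The limits pool the reads of each group, so they do not cover the spread between libraries. No molecular identifiers were used, and whether both mates of a read pair were counted is not stated. Repeat reads of the same fragment would make these limits, and the other counting intervals given here, too narrow.

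The summed depth of the groups was similar, yet genes seen in a single genotype were mostly Control genes. Of 2545 genes with no Control read and at least 1 Eef1g-cKO read, 33 had a read in every Eef1g-cKO library and 3 had at least 4 reads in each: Fgf21, Chac1 and the uncharacterised Gm42546. Fgf21 was first by its lowest count, 7 reads, and Chac1 shared the next place with 4. In the other direction, 4745 genes had Control reads and no Eef1g-cKO read, 446 of them had a read in every Control library, and 111 had at least 4 in each. These counts were made after the values of Fgf21 and Chac1 had been seen.

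**Figure D3:**
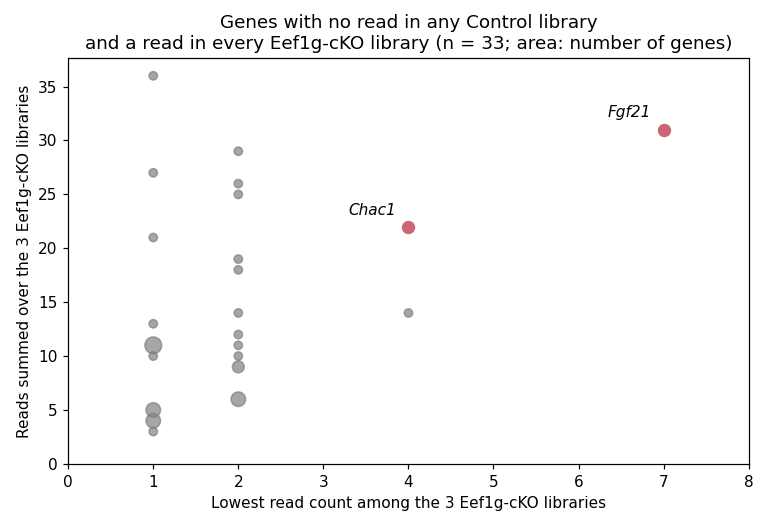
Genes with no read in any Control library and a read in each Eef1g-cKO library (33 genes); the x axis is the lowest read count among the 3 Eef1g-cKO libraries, the y axis their summed reads, and point area the number of genes (the 2 named genes, in red, are 1 gene each). Fgf21 (7 and 31 reads) lies farthest right, followed by Chac1 (4 and 22 reads) and Gm42546 (4 and 14 reads).

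Vldlr, a receptor for lipoproteins and reelin (ENSMUSG00000024924, chromosome 19, 27216484 to 27254231, plus strand), had 3, 5 and 10 reads in Control and 22, 56 and 18 reads in Eef1g-cKO. In CPM these were 2.29, 2.62 and 5.60 against 17.8, 22.0 and 27.8, so the lowest Eef1g-cKO library lay above every Control library. The means were 3.50 ± 1.82 and 22.5 ± 5.03 CPM (SD, n = 3), with a log2 ratio of 2.63 (SE 0.69). Vldlr met the low-count limit in the 3 Eef1g-cKO libraries and in 0 Control libraries. Its call was lost without Control replicate 1 (log2 fold change 2.44) or 2 (2.45). In Eef1g-cKO replicate 3, where Vldlr was highest, all 4 endothelial markers had no read, Sertoli markers summed to 1.54 CPM and blood and macrophage markers to 75.7 CPM. In Eef1g-cKO replicates 1 and 2 the endothelial markers summed to 35.6 and 0.39 CPM, against 3.05 to 12.9 CPM in Control. The part of such cells in the Vldlr count was not tested.

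Trib3, a pseudokinase that binds ATF4 and AKT (ENSMUSG00000032715, chromosome 2, 152337422 to 152344032, minus strand), had 1, 1 and 5 reads in Control and 9, 24 and 1 reads in Eef1g-cKO. Eef1g-cKO replicates 1 and 2, with 7.28 and 9.41 CPM, lay above all Control libraries, whereas replicate 3, with 1.54 CPM, lay inside the Control range of 0.52 to 2.80 CPM. At that library's depth 1 read decides such a value. The ratio of summed CPM was 5.48 (95% interval 2.39 to 14.6, counting error only), and 12.3 without Control replicate 3.

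Ppp1r15a, the gene of the feedback phosphatase subunit (ENSMUSG00000040435, chromosome 7, 45522916 to 45526268, minus strand), had 5, 14 and 12 reads in Control and 10, 6 and 2 reads in Eef1g-cKO. The genotypes overlapped, at 5.96 ± 1.88 and 4.51 ± 3.12 CPM, and the log2 fold change was −0.42 (SE 0.91). It was −1.14 without Eef1g-cKO replicate 1, and without Control replicate 2, Control replicate 3 or Eef1g-cKO replicate 2 the gene did not enter the fit. No element was found in its window or in that of Ddit3, Atf4 or the kinases.

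Other ATF4 targets were then examined, from a list of 51 genes without the 10 above. Like the 10 genes, this list and those below were chosen with earlier results of these data known. Their adjusted p-values are therefore descriptive and not independent support. Of 35 in the fit, 6 were called higher and 3 lower (1 lower without any 1 of the Control libraries). Over all fitted genes, 3.42% were called higher and 4.96% lower, which is also the background for the lists below. At an unadjusted p under 0.05 the numbers for the targets were 9 and 3, with DESeq2 7 and 3, and with limma-voom 6 and 3. The median log2 fold change of the targets was 0.11 against −0.05 for all fitted genes. The 6 genes called higher by edgeR serve amino acid supply and tRNA charging, apart from Herpud1 (log2 fold change 3.18, SE 0.25, edgeR adjusted p 5.87e-07), which acts in endoplasmic reticulum-associated degradation. Slc7a3, a transporter of cationic amino acids, had 3, 9 and 0 reads in Control and 43, 140 and 79 reads in Eef1g-cKO, a log2 ratio of 4.81 (SE 0.71, adjusted p 0.000322). It met the low-count limit of the fit in 0 Control and 3 Eef1g-cKO libraries, so it could enter only by being high in Eef1g-cKO. Asns, asparagine synthetase, had 3.03 (SE 0.38, adjusted p 4.04e-05), and Cars, the cysteinyl-tRNA synthetase, rose from 12.9 to 46.8 CPM (1.84, SE 0.44, adjusted p 0.0091). Nars, the asparaginyl-tRNA synthetase, rose from 126 to 263 CPM (1.06, SE 0.20, adjusted p 0.0014). The amino acid transporter Slc38a2 rose from 81.6 to 167 CPM (1.06, SE 0.28, adjusted p 0.017), a call lost without Control replicate 1 (adjusted p 0.066), Control replicate 2 (0.09) or Eef1g-cKO replicate 2 (0.12) and with a replicate block (0.052).

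The targets called lower were of mixed kinds, with an amino acid transporter among them as well. Ndrg1, a stress and hypoxia gene, fell from 26.3 to 3.41 CPM, a log2 ratio of −3.28 (SE 0.86, edgeR adjusted p 0.016), a call lost when Control replicate 1, 2 or 3 was left out (adjusted p 0.054, 0.050 and 0.10). Ndrg1 met the low-count limit in 3 Control and 0 Eef1g-cKO libraries, so its entry likewise favoured a difference. Map1lc3b, an autophagy gene, fell from 144 to 35.7 CPM (−2.03, SE 0.28, adjusted p 9.89e-05). Slc7a5, the large neutral amino acid transporter, fell from 35.1 to 10.7 CPM (−1.63, SE 0.50, adjusted p 0.035), a call that held in 1 of the 6 fits with a library left out, the one without Eef1g-cKO replicate 2. Eprs, the most abundant target, was at 419 and 494 CPM, a log2 ratio of 0.23 (SE 0.20, adjusted p 0.51). Sertoli, stromal and spermatogonial markers fell across the same libraries, and their part in the lower targets was not tested.

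**Figure D4:**
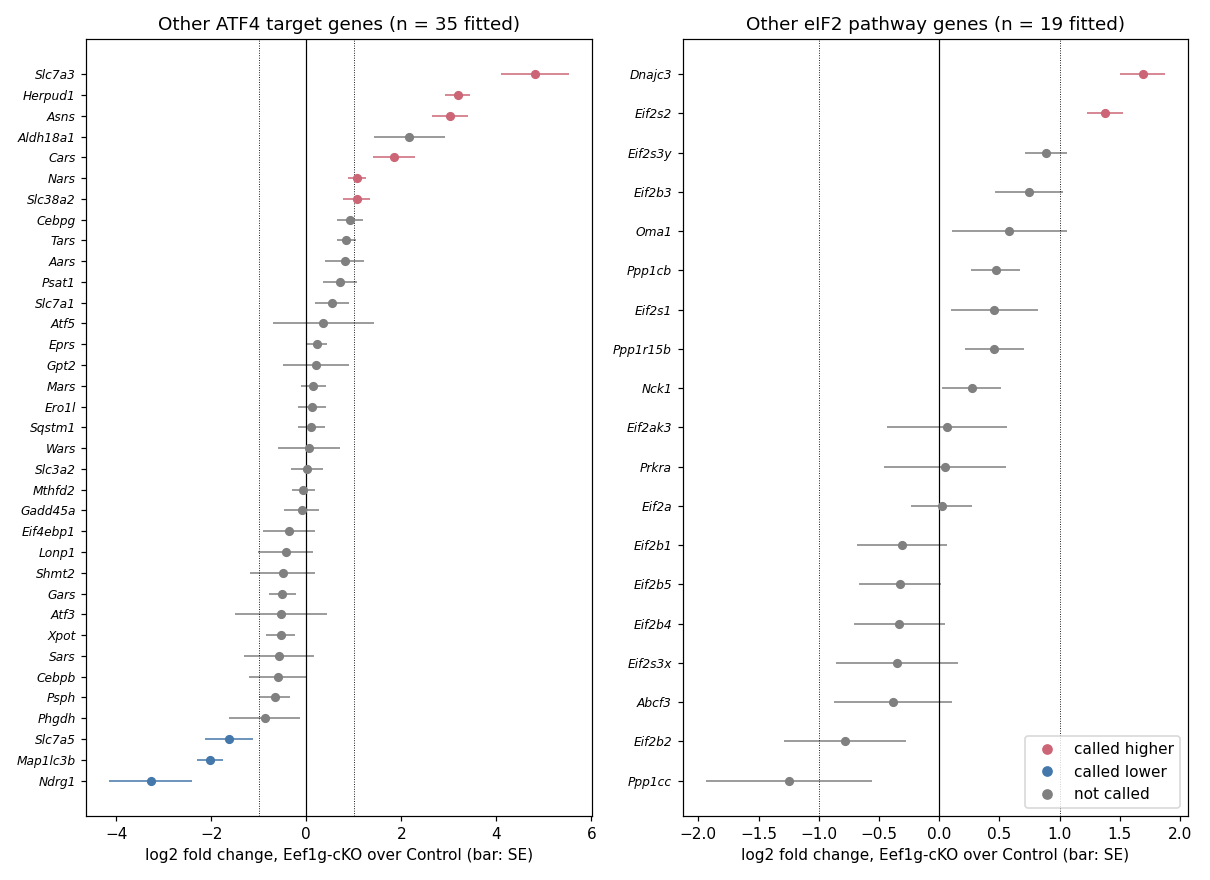
Log2 fold changes, Eef1g-cKO over Control (x axis), of the 35 other ATF4 targets and the 19 other eIF2 pathway genes in the fit, with bars for the SE, dotted lines at the fold change limit of 1 in both directions, and red and blue for genes called higher and lower. Of the ATF4 targets 6 are called higher and 3 lower, whereas of the pathway genes 2 are called higher and 0 lower.

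The TGATGNAA element was present near 11 of the 39 targets with a promoter entry (28.2%), a share that may also follow from the choice of the list. Of the 11 targets with the element, 6 were in the fit and 2, Asns and Herpud1, were called higher and 0 lower. Of the 28 targets without the element, 20 were in the fit, with 1 called higher and 1 lower. The 12 targets with no entry, 9 of them in the fit, held 3 of the genes called higher and 2 of those called lower. Over all fitted genes with an entry, 8.33% of the 156 with the element and 3.34% of the 6318 without it were called higher, and 2.56% and 4.92% were called lower. The fitted genes with the element include Vldlr, Asns and Herpud1, so these shares are not independent of the genes described above. The median log2 fold change was 0.01 with the element and −0.04 without it, so a typical gene with the element was little different.

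Of 26 genes that act on eIF2 or its kinases, 19 were in the fit, with 2 called higher and 0 lower by edgeR. The numbers were 5 and 0 at an unadjusted p under 0.05, and 2 and 0 with DESeq2 and with limma-voom. Eif2s2, the β subunit of eIF2 and the most abundant gene of this list, rose from 1589 to 4121 CPM, a log2 ratio of 1.37 (SE 0.15, adjusted p 1.23e-05). Dnajc3, a co-chaperone that inhibits eIF2α kinases, rose from 283 to 915 CPM (1.69, SE 0.19, adjusted p 1.23e-05). Eif2s3y, a Y-linked form of the γ subunit, had a log2 ratio of 0.89 (SE 0.18, adjusted p 0.0025), under the fold change limit; it is named after its value was seen and may share reads with its X-linked copy Eif2s3x. The substrate gene Eif2s1 (log2 fold change 0.46, SE 0.36) and the constitutive phosphatase partner Ppp1r15b (0.46, SE 0.24) were not called, nor were the 5 Eif2b subunit genes.

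Among 12 bZIP genes that can pair with ATF4 or act beside it, 9 were in the fit, with 0 called higher and 2 lower. At an unadjusted p under 0.05 the numbers were 2 and 3, and DESeq2 and limma-voom each gave 0 and 2. Nfe2l2, the oxidative stress factor NRF2, fell from 76.3 to 27.8 CPM, a log2 ratio of −1.46 (SE 0.34, edgeR adjusted p 0.0078), a call lost without Control replicate 3 (adjusted p 0.081). Fos fell from 258 to 86.3 CPM (−1.53, SE 0.30, adjusted p 0.0026). Cebpg, a known partner of ATF4, went from 75.8 to 145 CPM (0.92, SE 0.28, adjusted p 0.035), short of the fold change limit, and is named after its value was seen. Atf3 (−0.53, SE 0.96) and Atf5 (0.36, SE 1.06) could not be separated from no change.

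Genes of glutathione metabolism, the pathway of CHAC1, were lower where they were called. Of 13 genes 8 were in the fit, 0 were called higher and 2 lower, and 0 had a positive log2 fold change, against 4044 of all 8513 fitted genes. Sertoli, stromal and spermatogonial markers fell in the same libraries, and their part was not tested. At an unadjusted p under 0.05 the numbers were 0 and 2, with DESeq2 0 and 2, and with limma-voom 0 and 1. Gsr, glutathione reductase, fell from 214 to 43.6 CPM, a log2 ratio of −2.25 (SE 0.28, edgeR adjusted p 4.20e-05). Gpx1, a glutathione peroxidase, fell from 24.6 to 4.79 CPM (−2.19, SE 0.71, adjusted p 0.046), which held in 1 of the 6 fits with a library left out, that without Eef1g-cKO replicate 3. Gclm, the most abundant, was at 199 and 149 CPM (−0.39, SE 0.26), and Chac2, the constitutive relative of Chac1, at 10.3 and 7.55 CPM (−0.43, SE 0.83).

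Relatives and receptors of Vldlr, Fgf21 and Trib3 gave no calls: 9 of 20 genes were in the fit, and edgeR and limma-voom called 0 in either direction, whereas DESeq2 called 0 higher and 1 lower. At an unadjusted p under 0.05 the numbers were 1 and 1. Lrp6 was the most abundant, at 82.8 and 119 CPM. Klb, the co-receptor for FGF21, had 2 reads in Control replicate 2 and none elsewhere, and Fgfr4 and Kl had no read in any library.

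Enzymatic dissociation of tissue can itself induce early response genes. Of 16 such genes 10 were in the fit, with 0 called higher and 2 lower, Fos and Egr1. At an unadjusted p under 0.05 the numbers were 0 and 5, and DESeq2 and limma-voom each gave 0 and 2. Their sum was 458 to 786 CPM in the Control libraries and 207 to 348 CPM in those of Eef1g-cKO. Sertoli, stromal and spermatogonial markers were also lower in the Eef1g-cKO libraries, and the part of either in these genes or in the 10 genes was not tested. Egr1 fell from 167 to 71.8 CPM, a log2 ratio of −1.16 (SE 0.28, adjusted p 0.0092), a call lost without Control replicate 3 (adjusted p 0.063) or Eef1g-cKO replicate 3 (log2 fold change −0.90).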

How the data were processed

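The authors trimmed reads with fastp, aligned them to GRCm38 with HISAT2 2.2.1 and obtained gene counts with featureCounts 2.0.6. These unnormalised counts were deposited together with each gene's length in bases. Strand, read-pair and multi-mapping settings are not given in the sources used here. Libraries were prepared by amplification of full-length polyadenylated cDNA, and replicates were not pooled. Labels do not say whether replicates came from separate animals, so p-values measure the spread between these libraries.

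Groups were taken from sample titles. Of 54532 genes, 8513 passed filterByExpr (minimum count 10, minimum total 15). They were tested with edgeR 4.0.16 (R 4.3.3), TMM scaling and the robust quasi-likelihood F test with genotype as the only term, and p-values were adjusted over all fitted genes by the Benjamini-Hochberg method. Standard errors are the absolute log2 fold change over the square root of F. CPM used the scaled library sizes, and log2 CPM for correlations added 2 reads. No 2 libraries agreed within sampling noise (chi-square per degree of freedom at least 6.37). The procedure was tested on simulated data. DESeq2 1.42.0, limma 3.58.1 voom and other alternatives are given at the end. The sources name DESeq2 without describing its use.

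The members and lists were chosen with earlier results of these data known. Named genes are the 10 members, Eef1g, Eif2ak3, up to 8 called genes per direction and the most abundant fitted gene of each list, and the 5 genes closest to Atf4; any other is named with a remark or as an example of low counts. Some genes that this rule or the lists cover are not reported here. Promoter sequences are from RefSeq (GRCm38.p6).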

Additional observations from a re-analysis of the deposited data

How the results depend on the processing

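Apart from Eif2ak4 and Eif2ak3, the log2 ratios of the fitted members, Eef1g and the called list genes kept their sign in all alternatives that gave a value. Other named genes were not recomputed. The number of the 10 genes called higher was 1 with library totals alone, with upper-quartile scaling and with limma-voom, where Atf4 fell short of the fold change limit, and 3 without the low-count filter or with a filter on the mean count, where Fgf21 was added; with 1 library left out it was 0 (without Control replicate 2) to 2. The ATF4 targets called lower were 1 to 3 with 1 library left out (1 without any 1 of the Control libraries). Over all genes, 141 were higher with library totals, 181 with upper-quartile scaling and 664 without the fold change limit, and with 1 library left out 229 to 356 were higher and 207 to 548 lower (209, 207 and 210 without Control replicates 1, 2 and 3). Library totals and upper-quartile scaling shifted the median over all fitted genes by −0.19 and −0.12; the split was 291 higher and 422 lower with TMM and 141 and 531 with library totals. Eef1g had −0.64 without the low-count filter and −0.75 to −0.56 with 1 library left out, and its adjusted p was then 0.084 and 0.039 to 0.12. Fgf21 was at least 5.21-fold and Chac1 at least 2.69-fold higher against a floor of 3 reads in each Control library. Against 3 reads over the Control libraries together, leaving out 1 library gave bounds of 7.22 to 16.8 and 5.12 to 9.38. Nars and Slc38a2 fell under the fold change limit with library totals (0.87 and 0.88) and upper-quartile scaling (0.94 and 0.93). The causes of these shifts were not tested.

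Kinase values near 0 changed sign: Eif2ak4 was 0.0206 without the filter, 0.0126 with a filter on the mean count (at least 5 reads) and −0.31 to 0.29 with 1 library left out, and Eif2ak3 was −0.11 with library totals, −0.0558 with upper-quartile scaling and −0.22 to 0.34 with 1 library left out. Replicate numbers do not pair the libraries: deviations of same-numbered libraries correlated at −0.04, 0.03 and −0.06. With a replicate block, Eef1g had −0.69 (edgeR adjusted p 0.058), Eif2ak4 0.0846 and Eif2ak3 −0.0182, and the calls of Slc7a5 (−1.75), Slc38a2 (0.99) and Gpx1 (−2.24) were lost; 249 genes were higher and 328 lower. At these depths 3 reads were 1.18 to 4.63 CPM, which limits what can be said of Eif2ak2, Ddit3, Trib3 and Ppp1r15a.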
